A study of Mus musculus with 4 samples.

Results

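The Cd36+ ventral neurons are a subset of mature olfactory sensory neurons (OSNs) that the deposited cell table assigns to the cluster Cd36+ V., a partition computed after all receptor genes had been taken out of the counts. They number 515 of the 9539 clustered mature OSNs, which are in turn drawn from 15859 retained cells of the main olfactory epithelium, and mice 1 to 4 contributed 117, 152, 92 and 154 of them. The animals were 4 male C57BL/6 mice (C57BL/6J in the study's methods) aged 8 weeks and studied at rest, with no treatment labelled, whose dissociated and live-sorted epithelial cells gave 1 droplet-based 3′ library each, so that the mouse was the replicate (n = 4). The labels give 1 group and no batch, and no other condition. Comparisons are made with the plain Ventral cluster, which carries no subset marker in its name and holds 4600 neurons (1186, 1133, 750 and 1531 per mouse), and, where it helps, with the 197 Cd36+ dorsal (Cd36+ D.) and 1482 plain Dorsal neurons. All values describe unstimulated adult males, and papain dissociation followed by sorting decides which cells could be sampled.

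A mature OSN transcribes 1 odorant receptor (OR) gene out of a very large family, from 1 of its alleles, and this receptor sets both the odorants that the cell detects and the glomerulus its axon reaches. OR genes lie in arrays scattered over most chromosomes, and neighbours in an array are often close relatives. Signals run from the receptor through the G protein Gnal with Gng13, the adenylyl cyclase Adcy3 and the cyclic nucleotide-gated channel around Cnga2, to the chloride channel Ano2. Cd36 is a scavenger receptor that binds fatty acids and lipoproteins in many tissues. In the olfactory epithelium it is known from a scattered group of OSNs, where it lies on cilia and has been tied to the detection of fatty acids and other lipids. Nfix, a nuclear factor I transcription factor, marks ventral OSNs and Nqo1, a quinone reductase, marks dorsal OSNs.

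The receptors carried by these neurons can be seen in a stretch of coding sequence. The 8 windows given here hold 90 bases each, run 5′ to 3′ on the coding strand of GRCm38 with GENCODE M21 annotation, and begin with the ATG of the conserved segment that follows the third membrane-spanning helix. They are all within 1 coding exon. Olfr776 is in lower case throughout because it serves as the reference, being the largest population of the Cd36+ ventral cluster, and capitals in the others mark bases that differ from it in the alignment.

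Olfr776: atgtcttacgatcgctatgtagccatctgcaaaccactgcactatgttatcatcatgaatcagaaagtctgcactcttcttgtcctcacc
Olfr775: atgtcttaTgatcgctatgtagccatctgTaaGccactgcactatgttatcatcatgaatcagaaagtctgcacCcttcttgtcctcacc
Olfr788: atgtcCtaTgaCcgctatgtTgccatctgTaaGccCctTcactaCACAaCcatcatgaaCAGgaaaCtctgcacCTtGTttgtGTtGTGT
Olfr806: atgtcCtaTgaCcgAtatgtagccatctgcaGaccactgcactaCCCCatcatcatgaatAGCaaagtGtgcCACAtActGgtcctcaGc
Olfr810: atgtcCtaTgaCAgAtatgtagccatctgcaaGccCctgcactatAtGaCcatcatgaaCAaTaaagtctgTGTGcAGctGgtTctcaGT
Olfr820: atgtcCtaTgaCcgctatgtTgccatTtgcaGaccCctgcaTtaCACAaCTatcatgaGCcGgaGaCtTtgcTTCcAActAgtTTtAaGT
Olfr1312: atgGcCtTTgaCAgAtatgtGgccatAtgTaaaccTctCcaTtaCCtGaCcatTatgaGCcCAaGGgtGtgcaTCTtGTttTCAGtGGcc
Olfr303: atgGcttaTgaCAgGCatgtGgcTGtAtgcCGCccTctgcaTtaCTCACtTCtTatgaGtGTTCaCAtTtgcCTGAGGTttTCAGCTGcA

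The Olfr776 window lies at chr10:129261308-129261397 on the plus strand, and that of its neighbour Olfr775 at chr10:129250881-129250970. These 2 windows differ by 4 bases, although the neurons that use the receptors fall into different clusters, as described below. Olfr788 (chr10:129473036-129473125, plus strand, 27 differing bases) and Olfr806 (chr10:129738481-129738570, minus strand, 20 differing bases) are further Cd36+ ventral receptors of the same array. Olfr810 (chr10:129791153-129791242, minus strand, 23 bases) is used mainly by Cd36+ dorsal neurons, and Olfr820 (chr10:130017708-130017797, plus strand, 31 bases) by plain Ventral neurons. Olfr1312 (chr2:112042599-112042688, minus strand, 36 bases) and Olfr303 (chr7:86395056-86395145, minus strand, 46 bases) are Cd36+ ventral receptors from other chromosomes. The 5 windows of Cd36+ ventral receptors thus differ widely in sequence.

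The cluster carried its defining marker in each mouse. Levels are given as UMIs per 10000, meaning the unique molecular identifiers of a gene summed over the neurons of a cluster in 1 mouse, divided by all UMIs of those neurons and multiplied by 10000. Cd36 (chromosome 5, 17781690 to 17888801, minus strand) stood at 8.96, 9.28, 8.55 and 10.0 in the Cd36+ ventral neurons of mice 1 to 4 (mean 9.20 ± 0.616, SD) and at 0.0104, 0.0802, 0.0508 and 0.0396 in Ventral neurons (mean 0.0453 ± 0.0289). The ranges did not overlap, and since Cd36 named the cluster this is a description of it. Nfix stood at 5.01 ± 0.404 against 5.52 ± 0.441 in Ventral and 0.238 in Cd36+ dorsal neurons, and Nqo1 at 0.834 ± 0.372 against 0.474 ± 0.0779 in Ventral and 20.6 in Cd36+ dorsal neurons. Both zone markers were thus nearer to Ventral than to Cd36+ dorsal neurons, with Nqo1 above Ventral.

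Maturity markers were present as well. Omp, the olfactory marker protein, stood at 65.9 ± 4.58 against 78.5 ± 3.74 UMIs per 10000 in Ventral neurons, Gng13 at 76.4 ± 4.32 against 95.1 ± 3.94, Adcy3 at 6.80 ± 0.698 against 12.4 ± 0.923 and Cnga2 at 3.97 ± 0.142 against 8.22 ± 0.324. Each of the 4 was lower in the Cd36+ ventral neurons of every mouse. Gap43, which marks immature OSNs, was low in both clusters (0.0859 ± 0.0408 and 0.145 ± 0.0182). Of the 13 measured immature-neuron markers 8 were nevertheless higher in every mouse and 1 was lower in every mouse (14.8% and 19% of 8736 measured genes), with a median log2 ratio of Cd36+ ventral over Ventral of 0.30, and among the higher ones were Dpysl3 (0.289 ± 0.114 against 0.0917 ± 0.0231) and Marcksl1 (0.158 against 0.0621). The lower one was Dcx, at 0.510 ± 0.0662 against 1.49 ± 0.0650, with a log2 ratio of −1.46 ± 0.18. The 4 maturity markers thus lay below Ventral and most immature-neuron markers above it, with Dcx as an exception. The cause of these shifts was not tested.

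Detection of Cd36 depends on how deeply a cell was read, so each cell with at least 3000 UMIs was thinned to that number. At this common depth 91.0% ± 0.647 of the Cd36+ ventral neurons (448 cells, 67 shallower ones left out) and 89.3% ± 3.73 of the Cd36+ dorsal neurons held a Cd36 UMI, against 0.652% ± 0.326 of Ventral neurons (3799 cells, 801 left out) and 0.756% ± 0.419 of Mv2 microvillar cells, which are not neurons. With all UMIs counted, the shares were 96.9% ± 2.18 in Cd36+ ventral and 0.981% ± 0.416 in Ventral neurons, whose median UMI counts were 4873 and 4695.5. Among the retained cell types that are not neurons, Cd36 was highest in the horizontal basal cell group HBC2 (2.08 UMIs per 10000, 41.2% of thinned cells). By count, 0 of the 929 Cd55+ V., Cd55+ D. and Dlg2+ D. neurons held a Cd36 UMI, which by counting error alone allows a share of neurons with a UMI of up to 0.323%. Those 3 clusters are named because they were at 0, and in the remaining mature clusters without Cd36 in their name the thinned share ran from 0.203% ± 0.242 in Dorsal to 0.735% ± 0.555 in Calb2+ V. neurons. The Ventral share lies within this range and includes neurons with a Cd36+ ventral receptor that are described below.

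**Figure D1:**
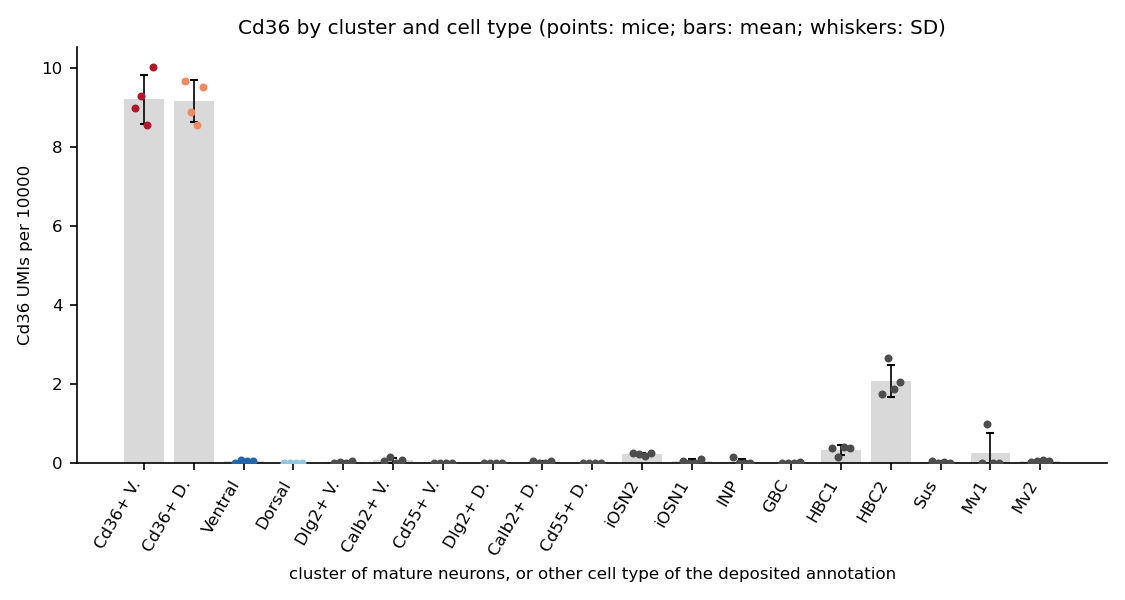
Cd36 level in UMIs per 10000 (vertical axis) in the 10 clusters of mature neurons and the other cell types of the deposited annotation. Points are the 4 mice, bars the mean and whiskers the SD. Both Cd36+ clusters lie between 8.54 and 10.0 in every mouse, and HBC2 follows at 2.08.

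Library depth and mixing were as follows. The libraries held from 23157467 to 32382702 UMIs in 21809 cell barcodes, and 54 barcodes occurred in more than 1 library, 1 of which belonged to a Cd36+ ventral neuron. Markers of other cell types were low but not equal between the clusters, and whether their RNA came from other cells was not tested. Summed over its 11 markers, the endothelial list ranged from 0.404 to 0.518 UMIs per 10000 over the 4 mice in Cd36+ ventral and from 0.108 to 0.169 in Ventral neurons, 7 of its markers, Cdh5, Cldn5, Flt1, Egfl7, Emcn, Tie1 and Gpihbp1, being at 0 in the former. Its difference came mainly from Pecam1, an adhesion molecule (0.278 ± 0.00653 against 0.0487 ± 0.0161). The 12 sustentacular and gland markers summed to between 0.748 and 1.23 against 0.239 to 0.333, with Bpifb9b and Sox9 at 0 and Cyp2a5 at 0.299 ± 0.045 against 0.0796 ± 0.00993. In the other lists the ranges over mice overlapped, with mean sums of 0.142 against 0.159 for immune, 0.607 against 0.678 for blood, 0.0931 against 0.0538 for basal, 0.416 against 0.37 for microvillar and 0.0902 against 0.0673 for ensheathing or mural markers. Their part in the differences between the clusters was not tested either.

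The Cd36+ ventral neurons made up 4.47%, 6.63%, 5.37% and 5.28% of the clustered mature OSNs of mice 1 to 4 (mean 5.44% ± 0.889). The Wilson 95% interval was 3.75 to 5.34% in mouse 1 and 5.68 to 7.72% in mouse 2, so these 2 mice differed by more than counting error, which is all that the intervals cover.

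Receptor identity was not used in forming the clusters, and it differed widely between them. The 515 neurons used 67 receptor identities and the 4600 Ventral neurons 572, of which 27 occurred in both. In 49 of the 67 identities more than 50% of the clustered neurons, from at least 3, were Cd36+ ventral, and these 49 accounted for 478 of the 515 neurons. The remaining identities had most neurons in other clusters or no majority, such as Olfr810, with 17 of 21 neurons in Cd36+ dorsal, or Olfr281, with 24 of 25 in Ventral.

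The largest populations show how complete the assignment was. All 27 Olfr776 neurons were Cd36+ ventral (3, 12, 5 and 7 in mice 1 to 4), as were all 21 Olfr788 neurons (8, 6, 2 and 5). For Olfr806 it was 21 of 22 neurons (3, 5, 2 and 11), with 1 in Ventral. Each of these populations was present in all 4 mice and none was confined to a single animal. In descending order followed Olfr303 with 17 of 19 neurons, Olfr789 with 16 of 17, Olfr805 with 16 of 19, Olfr771 with 14 of 16, Olfr1251 with 14 of 15, and Olfr1305, Olfr1312 and Olfr769 with 14 of 14 each. Next were Olfr821 with 13 of 17 neurons, Olfr786 with 13 of 16, and Olfr787 (12 of 18), Olfr360 (12 of 13), Olfr801 (12 of 13) and Olfr750 (12 of 12), which tied. The largest Ventral populations, Olfr1348, Olfr1226, Olfr239, Olfr1297 and Olfr1264 with 78, 76, 70, 52 and 50 Ventral neurons, had 0 neurons in the Cd36+ ventral cluster.

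Across all identities, edgeR's quasi-likelihood test on neuron numbers per mouse, with the mouse as a block and Benjamini-Hochberg adjustment, called 25 of 182 tested identities (13.7%) as more frequent among Cd36+ ventral neurons. Identities needed 10 neurons in the 2 clusters together to be tested, which left out 40 of the 67, and an identity that reached 10 mainly through the much smaller Cd36+ ventral cluster had to be over-represented in it. Of the 25, 14 had 0 Ventral neurons and passed this limit through the Cd36+ ventral cluster alone, so that the count is a description, and it was 40 with a limit of 5 neurons and 3 with a limit of 20. Olfr281 and Olfr224, with 1 Cd36+ ventral neuron each, were the 2 tested identities of the cluster that were not called. The 25 identities covered 342 neurons (66.4%). A further 29 identities (15.9%) were called as less frequent, but this number depended on the setting (0 without mouse 1 or mouse 4 and with DESeq2, 157 with TMM factors).

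The receptors were used in unequal numbers. The 10 largest populations held 35.9%, 35.5%, 33.7% and 30.5% of the Cd36+ ventral neurons of the 4 mice (33.9% ± 2.46), against 12.1% ± 1.06 for the 10 largest of Ventral, and 17 identities were enough to cover 50% of the neurons against 83 in Ventral. The Ventral cluster holds more cells and more identities, and as a share of the repertoire the order is the reverse, with 25.4% of the 67 Cd36+ ventral and 14.5% of the 572 Ventral identities covering 50% of the neurons. In 2 ventral clusters nearer in size, Calb2+ V. and Cd55+ V., 11 of 87 and 7 of 51 identities covered 50%. These differences between clusters were not tested.

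The receptors came from a few places in the genome. Receptor genes less than 1000000 bases apart were joined into 64 arrays, and 13 arrays contained any receptor of a Cd36+ ventral neuron. An array on chromosome 10 (128989431 to 130214403, 68 receptor genes) supplied 60.7%, 57.2%, 56.5% and 59.7% of the Cd36+ ventral neurons of mice 1 to 4 (58.5% ± 1.98) and 2.63% ± 0.27 of Ventral neurons. The ranges were far apart in every mouse, and the log2 fold change was 4.48 (SE 0.131, edgeR adjusted p 2.5e-58). An array on chromosome 2 (111230360 to 112167997, 46 receptor genes) supplied 19.7% ± 2.31 against 3.18% ± 0.377 (log2 fold change 2.61, SE 0.161, edgeR adjusted p 2.1e-29). In all, 6 of 36 tested arrays (16.7%) were called as over-represented and 23 (63.9%) as under-represented. The test compares shares of a fixed total of neurons. The large shares of the 2 leading arrays therefore lower those of the other arrays. How far the under-represented calls follow from this was not tested. Some of them were arrays without Cd36+ ventral neurons. An array on chromosome 7 (140159999 to 140722112) supplied 0 Cd36+ ventral neurons and 4.99% ± 1.06 of Ventral neurons.

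The other 4 over-represented arrays were smaller in neurons. They were on chromosome 6 (116489091 to 116584195, 14 Cd36+ ventral neurons, log2 fold change 1.59, and 41768770 to 43236959, 13 neurons, 1.08), chromosome 2 (36285023 to 37332772, 12 neurons, 1.29) and chromosome 7 (86268487 to 86697507, 17 neurons, 0.99), with edgeR adjusted p between 0.0018 and 0.031. These smaller calls rested on few neurons, and without mouse 4 only 3 arrays were called as over-represented. The largest array of the series, on chromosome 2 (85330779 to 90403897, 290 genes), gave 4.51% ± 2.16 of Cd36+ ventral against 25.4% ± 2.07 of Ventral neurons (log2 fold change −2.51, SE 0.291). This share too is lowered by those of the leading arrays. Class I receptors, the older branch of the family that lies on chromosome 7 (102476579 to 105369355), were used by 5 of the 515 Cd36+ ventral and 117 of the 197 Cd36+ dorsal neurons. Their share was 1.08% ± 1.09 in the former against 1.33% ± 0.643 in Ventral neurons, where no difference was called (edgeR adjusted p 0.62).

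Within the chromosome 10 array the clusters occupied different stretches. Of 642 clustered neurons of the array, 302 were Cd36+ ventral, 79 Cd36+ dorsal and 120 Ventral. Its receptors were mostly Cd36+ ventral in 26 cases, mostly Cd36+ dorsal in 10 and mostly Ventral in 6. Cd36+ ventral receptors ran from Olfr768 to Olfr806 and recurred at Olfr818 and Olfr821, whereas Cd36+ dorsal receptors were gathered between Olfr808 and Olfr816, with Olfr792 and Olfr822 outside that run. The genes at both ends, from Olfr9 to Olfr766-ps1 and from Olfr824 to Olfr827, were used by 0 Cd36+ neurons of either kind. Single Ventral populations stood inside the Cd36+ stretch, namely Olfr775, Olfr794 and Olfr796, and Olfr820 with 46 neurons lay between Olfr818 and Olfr821.

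**Figure D2:**
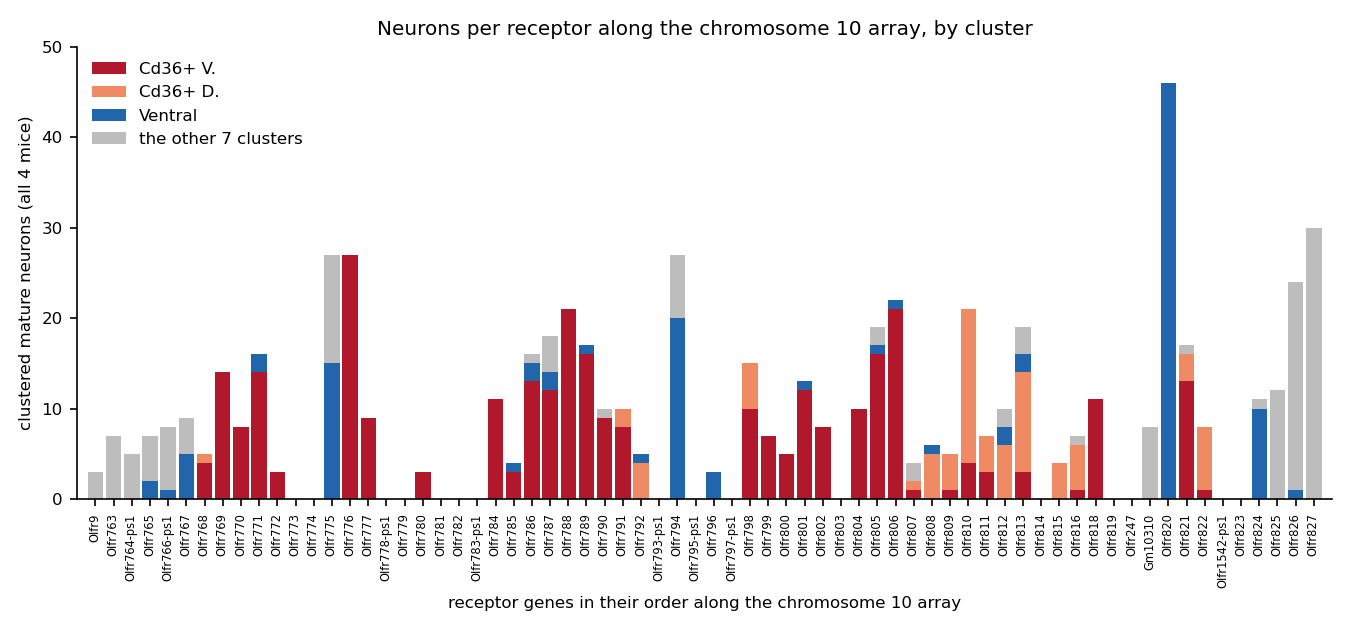
Number of clustered mature neurons (vertical axis, all 4 mice) for each receptor gene of the chromosome 10 array in its order along the chromosome (horizontal axis), coloured by cluster. Cd36+ ventral neurons (302) fill the middle of the array, Cd36+ dorsal neurons (79) the stretch around Olfr810, and neither is seen at the ends.

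In the chromosome 2 array at 111230360 to 112167997, 13 receptors were mostly Cd36+ ventral and 11 mostly Ventral, and 101 of its 267 neurons were Cd36+ ventral. The former were Olfr1275, Olfr1276 and Olfr1278 and 10 receptors between Olfr1305 and Olfr1318. Of the 267 neurons 0 were Cd36+ dorsal.

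Coding sequences of receptors were aligned in pairs to ask whether the subset shared close relatives. Within the chromosome 10 array, Cd36+ ventral receptors were 67.2% identical to each other at the median (62.0 to 96.8%), 67.6% to the Cd36+ dorsal receptors and 65.0% to the Ventral receptors of the array. Cd36+ ventral receptors of the chromosome 2 array were 70.0% identical among themselves and 60.9% to the Ventral receptors there. Between the 2 arrays the median was 53.8%, with 57.7% as the highest of 338 pairs, so that the subset joined receptor groups that are distant in sequence. In 39 of the 49 receptors (79.6%) the nearest relative among 722 receptors was itself mostly Cd36+ ventral, where 6.79% of those 722 were. For 46 of the 49 the nearest relative lay in the same array, and pairs of relatives are not independent of each other. Within the arrays the share was far higher than 6.79%. Of the receptors with a majority cluster, 26 of 50 in the chromosome 10 array and 13 of 26 in this chromosome 2 array were mostly Cd36+ ventral. Whether kinship adds to array membership was not tested.

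Some close relatives nevertheless fell into different clusters. Olfr776 and its neighbour Olfr775, whose windows are printed above, were 96.0% identical over the coding sequence, yet 27 of 27 Olfr776 neurons were Cd36+ ventral and 0 of 27 Olfr775 neurons were, 15 being Ventral and 12 Dlg2+ V. All 27 Olfr776 neurons held Cd36 UMIs, against 0 of 27 Olfr775 neurons, which by counting error alone allows a share with a UMI of up to 11.1%. Olfr776 neurons held 408 UMIs of Olfr776 and 0 of Olfr775, and Olfr775 neurons 386 of their own and 1 of Olfr776. Neurons with several receptors above the limit had been set aside before, which bears on these counts, and misassigned reads were not tested for. Olfr1251 (14 of 15 Cd36+ ventral) and Olfr1253 (0 of 11) were 93.9% identical. Olfr287 (8 of 10) and Olfr286 (0 of 25, all Ventral) were 93.5% identical, and Olfr360 (12 of 13) and Olfr358 (0 of 13, 10 of them Cd55+ D.) 85.1%. In a pair divided between the Cd36+ clusters, Olfr798 (10 of 15 Cd36+ ventral, the other 5 Cd36+ dorsal) and Olfr792 (0 Cd36+ ventral and 4 of 5 Cd36+ dorsal) were 95.1% identical.

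The amount of receptor RNA was compared per mouse. The receptor of its own identity took 103, 82.4, 71.8 and 88.2 UMIs per 10000 of a neuron on average in Cd36+ ventral neurons of mice 1 to 4 (86.3 ± 12.8) and 93.7, 98.5, 96.0 and 98.1 in Ventral neurons (96.6 ± 2.18). It was lower in 3 of 4 mice, with a mean difference of −10.3 ± 14.0, and an exact two-sided sign-flip permutation test gave p = 0.25, where 0.125 is the smallest value that 4 mice allow, so that this design cannot reach 0.05. The mean difference was −16.7 without mouse 1, where it was below 0 in each remaining mouse, and −5.69 without mouse 3. At 3000 UMIs, a further receptor was detected in 24.5% ± 2.54 of Cd36+ ventral and 22.8% ± 2.38 of Ventral neurons, a difference of 1.68 ± 1.95 percentage points (exact sign-flip permutation p = 0.25). It was 0.789 percentage points without mouse 2. With all UMIs counted the share was higher in 4 of 4 mice, by 2.09 ± 1.40 percentage points (exact sign-flip permutation p = 0.125).

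Genes other than receptors had been available to the clustering, so their differences between Cd36+ ventral and Ventral neurons are described here without a test. A gene was taken as past the fold rule when it was at least 2-fold apart in the same direction in each mouse and reached 0.5 UMIs per 10000 in the higher cluster. Of 3754 genes that reached this level, 33 were higher (0.879%) and 36 lower (0.959%) in Cd36+ ventral neurons, while the median log2 ratio of 8736 measured genes was −0.03. Of these measured genes 14.8% had a log2 ratio above 0 and 19% one below 0 in every mouse. Log2 ratios were taken per mouse after 0.05 UMIs per 10000 had been added to both levels, and they understate the change of genes near 0.

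The higher genes included transcription factors and surface proteins. Tshz1, a teashirt zinc-finger factor, stood at 9.40, 10.6, 9.85 and 11.8 UMIs per 10000 in Cd36+ ventral against 0.521, 0.847, 0.839 and 0.644 in Ventral neurons (log2 ratio 3.80 ± 0.32). Cd55, which restrains complement on cell surfaces, stood at 6.79, 7.38, 6.64 and 6.87 against 0.681, 0.668, 0.648 and 0.735 (3.25 ± 0.10). In neither gene did the groups overlap; Cd55 also names another pair of clusters. Olig1, a basic helix-loop-helix factor known from oligodendrocytes, stood at 3.56, 4.59, 4.02 and 3.30 against 0.934, 0.963, 1.18 and 0.946 (1.89 ± 0.22). Prxl2a, a peroxiredoxin-like protein, stood at 14.0, 12.9, 13.2 and 12.7 against 3.63, 3.62, 3.59 and 3.58 (1.86 ± 0.06), and its ratio hardly varied between mice.

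The remaining higher genes were at lower levels and covered several functions. Enzymes and secreted proteins among them were Klkb1, the precursor of plasma kallikrein (mean 1.44 against 0.0291 UMIs per 10000, log2 ratio 4.24 ± 0.09), Dio2, the deiodinase that activates thyroid hormone (1.47 against 0.0779, 3.57 ± 0.22), the fatty acid hydroxylase Cyp4v3 (0.922 against 0.0348, 3.48 ± 0.53), the lysophospholipid acyltransferase Mboat1 (1.27 against 0.203, 2.38 ± 0.19), Zadh2 (0.598 against 0.0894, 2.18 ± 0.45) and Nppc, the precursor of C-type natriuretic peptide (0.764 against 0.0871, 2.49 ± 0.59). Col27a1, a fibrillar collagen, and Pcdh11x, a protocadherin, had log2 ratios of 3.23 ± 0.17 and 3.02 ± 0.32. Of genes linked to the cytoskeleton and small GTPases, Tppp3 (3.85 against 0.507, 2.81 ± 0.08), Frmd3 (2.30 ± 0.16), Rnd2 (1.61 ± 0.14) and Rasl11a (1.58 ± 0.12) were higher. Zfp407, a zinc-finger protein, the kinase Cdk14 and Fam241a followed with log2 ratios of 2.71 ± 0.23, 2.31 ± 0.19 and 1.86 ± 0.09.

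The 10 lowest genes stood under 1 UMI per 10000 in the cluster. Ptn, the secreted growth factor pleiotrophin, stood at 0.015, 0.0143, 0.0158 and 0.0305 UMIs per 10000 against 2.14, 1.76, 1.82 and 2.11 in Ventral neurons (log2 ratio −4.87 ± 0.14). Adam28, a membrane metalloprotease (mean 0.0229 against 1.28), Tuba4a, an alpha-tubulin (0.0381 against 1.40), and Cidea, a lipid droplet protein (0.0987 against 2.07), had ratios of −4.21 ± 0.25, −4.07 ± 0.26 and −3.85 ± 0.39. Cadps2, which acts in dense-core vesicle release, 2010204K13Rik, Mslnl and Pcdh10, a protocadherin, had ratios of −3.25 ± 0.11, −3.14 ± 0.19, −2.72 ± 0.32 and −2.68 ± 0.38. Aldh3b1, an aldehyde dehydrogenase, was at −2.72 ± 0.70. Avp, the vasopressin precursor, was uneven in Ventral itself (1.21, 0.0522, 0.248 and 0.537 in mice 1 to 4) and was at 0 in 3 of the 4 mice in Cd36+ ventral neurons.

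**Figure D3:**
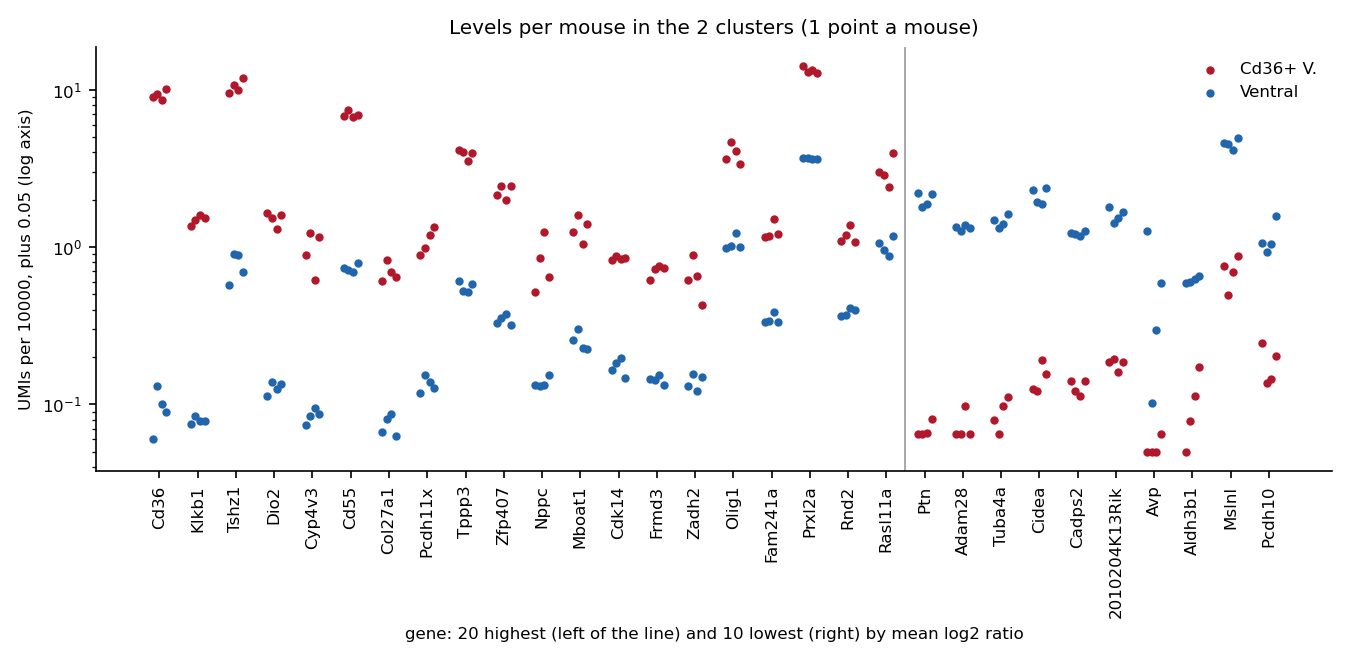
UMIs per 10000 plus 0.05 on a log axis (vertical) for the 20 genes with the highest and the 10 with the lowest mean log2 ratio past the fold rule (horizontal). Each point is 1 mouse, red for Cd36+ ventral and blue for plain Ventral neurons. The colours do not overlap for any gene. The fold rule asks for at least 2-fold within each mouse, so a gap between the colours is largely part of the selection.

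The Cd36+ dorsal cluster was set against plain Dorsal neurons by the same rule. There, 33 of 3678 genes were higher (0.897%) and 24 lower (0.653%). Of the higher genes 18 were on both lists (54.5% of each), including Tshz1 (9.66 against 0.268 UMIs per 10000), Cd55 (8.91 against 0.687), Tppp3 (5.33 against 0.326) and Klkb1 (0.985 against 0.028). Of the lower genes 14 were shared, 38.9% of the ventral and 58.3% of the dorsal list, among them Ptn (0.0316 against 4.86) and Adam28 (0.00847 against 1.18). The 2 comparisons use different neurons but the same 4 libraries. Cidea and Aldh3b1 were already low in Dorsal neurons (0.109 and 0.0117) and were past the rule in the ventral comparison alone. Pcdh10, which was 0.132 against 1.11 in the ventral pair, stood at 0.558 against 0.598 in the dorsal pair, a contrast that was not tested.

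The list of odour transduction genes summed to 588 ± 7.68 UMIs per 10000 against 683 ± 5.37 in Ventral neurons. Of its 23 measured members 14 were lower in all 4 mice and 3 were higher in all 4, against 19% and 14.8% of all measured genes, with a median log2 ratio of −0.25. Ano2, the chloride channel that amplifies the receptor current, was the member past the fold rule (1.25 ± 0.28 against 3.53 ± 0.34, log2 ratio −1.48). Cnga2 followed at −1.04 ± 0.09, Adcy3 at −0.86 ± 0.05 and Stoml3, a stomatin-like protein of cilia, at −0.83 (53.0 against 94.4). The exchangers Slc24a4 and Slc8a1, which remove calcium, had the highest ratios of the list, at 0.32 ± 0.42 and 0.30 ± 0.24. Of the 12 non-canonical sensory neuron genes only Car2 was measured, at 0.821 against 1.12.

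The list for fatty acid and lipid handling had 1 member past the fold rule. It leaves out Cyp4v3, Mboat1 and Cidea, which act on lipids and are past the fold rule as given above. Of its 42 genes 18 were measured, and the median log2 ratio was 0.01. Cd36, which names the cluster, alone was past the fold rule, where 0.879% of all genes at the required level were higher. Acadvl, an acyl-CoA dehydrogenase, stood at 0.748 against 0.584 UMIs per 10000 and Acadm at 0.151 against 0.215. Among 11 kinases and partners of Cd36 signalling only Stim1, Fyn and Orai1 were measured, with log2 ratios of 0.50, −0.31 and −0.53, and Plcb2, Ffar1, Ffar2, Ffar4 and Gpr84 were at 0.

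Markers of position differed from Ventral in both zone lists, with exceptions in each. The ventral zone list of 8 genes held 1 gene past the rule, Cidea, and 6 that were lower in every mouse, as were 19% of all measured genes. In this list 1 gene was higher in every mouse, and the median log2 ratio was −0.33. Of the 6 measured dorsal zone genes 5 were higher and 1 lower in every mouse. Over all measured genes 14.8% were higher in every mouse. The median log2 ratio of the dorsal zone list was 0.73. The dorsal zone list summed to 14.9 ± 1.10 against 7.81 ± 0.201 UMIs per 10000, none of its members being past the rule. This sum was carried by Cartpt, a neuropeptide precursor (10.5, 12.1, 11.2 and 11.1 against 5.45, 4.82, 5.23 and 5.49), while the guidance receptor Robo2 stood at 1.59 against 0.759 and Nrp1, a semaphorin receptor on OSN axons, at 0.0152 against 0.478, which is under the level that the rule required. Of the other subset markers, Dlg2, a synaptic scaffold, stood at 4.04 ± 0.859 against 1.79 ± 0.23 and Calb2, a calcium buffer, at 0.458 ± 0.276 against 0.763 ± 0.0479.

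Guidance, adhesion and signalling genes varied one by one. Of 27 measured axon guidance and adhesion genes, Plxna3, a semaphorin co-receptor, was lower past the rule (0.23 against 0.861 UMIs per 10000), 16 were lower in every mouse and 5 higher (19% and 14.8% of all measured genes), among the latter Sema3a (0.127 against 0.0219) and Plxna1 (2.52 against 1.19). Pcdh11x was higher and Pcdh10 lower among 8 measured protocadherins, and Pcdh9 stood at 0.0376 against 0.493. The calcium-binding proteins summed to 313 ± 37.8 against 226 ± 17.4, most of it S100a5, an OSN protein whose level follows odour input, with 279, 257, 338 and 298 in mice 1 to 4 against 210, 185, 217 and 220. Of 26 measured members of the list of sensory neuron transcription factors, which leaves out Olig1 and Zfp407, Tshz1 was higher past the rule and Id4, an inhibitor of helix-loop-helix factors, lower (1.46 against 3.52), against 0.879% and 0.959% over all genes. In every mouse 9 of the 26 were lower and 4 higher (19% and 14.8% of all measured genes). Tshz2, the relative of Tshz1, went the other way in level, at 10.2 against 17.3, and Dlx5 stood at 0.263 against 0.0111. The immediate early genes, which report recent activity, held none past the rule. Of 10 measured members, however, 5 were higher and 1 lower in every mouse, with a median log2 ratio of 0.46. Their list summed to 19.1 ± 1.78 against 15.4 ± 0.410. Fos stood at 1.66 against 0.872, Egr1 at 0.32 against 0.14, Btg2 at 0.145 against 0.155 and Nr4a1 at 0.0975 against 0.25. Egr1, Btg2 and Nr4a1 were under the level that the rule required. The list of potassium and other voltage-gated channels, which does not hold Ano2, had none either (17 measured, median log2 ratio −0.40). Of these 17 channels 9 were lower and 2 higher in every mouse. Of 13 measured immature-neuron markers Dcx, a microtubule protein, was lower past the rule (0.51 against 1.49). It was the only 1 of the 13 that was lower in every mouse, and 8 were higher in every mouse.

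Members differed among themselves according to their receptor. In the 23 populations with at least 10 Cd36+ ventral neurons (326 neurons), Cd36 ranged from 5.51 UMIs per 10000 in Olfr801 to 16.3 in Olfr1313 and Tshz1 from 5.51 to 14.1, and between 83.3% and 100% of the neurons of a population held a Cd36 UMI. Omp was even narrower (48.4 to 77.8). All of these genes were open to the clustering, and Cd36 names the cluster, which bears on its range. Prxl2a also had a narrow range (10.2 to 20.1), but several other genes spread far more. Cd55 ranged from 0.862 in Olfr787 to 16.6 in Olfr750, Cartpt from 1.45 in Olfr1312 to 33.0 in Olfr769, and S100a5 from 38.9 in Olfr769 to 622 in Olfr1312. The population with the highest Cartpt had the lowest S100a5 and the reverse, and all populations share the 4 libraries. The level of the own receptor reached from 21.6 in Olfr1305 to 455 in Olfr360. These values pool 10 to 27 neurons over mice and carry no replicate error.

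**Figure D4:**
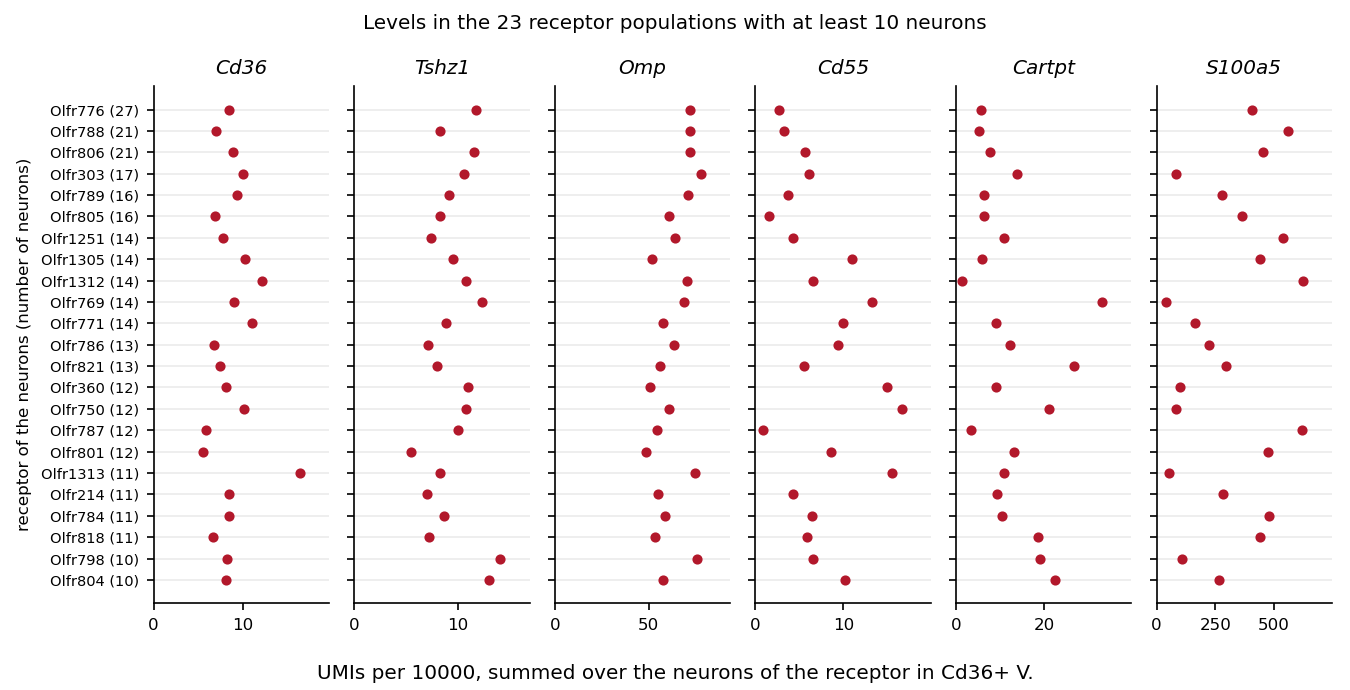
UMIs per 10000 of 6 genes (horizontal axes, each from 0) in the 23 receptor populations with at least 10 Cd36+ ventral neurons (vertical axis, number of neurons in parentheses). Cd36, Tshz1 and Omp stay within a narrow band, from 5.51 to 16.3 for Cd36, whereas S100a5 runs from 38.9 to 622.

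Grouped by array and mouse, Cd36 stood at 8.03 ± 0.441 UMIs per 10000 in neurons with a chromosome 10 receptor (302), 12.0 ± 2.22 with a chromosome 2 receptor of the array at 111230360 to 112167997 (101) and 9.50 ± 1.00 with any other (112). Cartpt stood at 13.2 ± 1.33, 5.67 ± 1.55 and 11.4 ± 1.80. These genes were open to the clustering, and the values are a description.

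A few neurons sat in the cluster that their receptor did not favour. Of the Ventral neurons, 27 used a receptor that was mostly Cd36+ ventral, and 17 of them (63%) held Cd36 UMIs, at 4.37 UMIs per 10000, with Tshz1 at 5.97 and Ptn at 0.213. Of the 3975 Ventral neurons with a receptor mostly used in Ventral, 19 (0.478%) held Cd36, with Tshz1 at 0.666 and Ptn at 1.89. Conversely, all 8 Cd36+ ventral neurons with a mostly Ventral receptor held Cd36, at 15.3 UMIs per 10000. Membership of a cluster named for Cd36 nearly fixes this outcome, as 96.9% of all its neurons held a Cd36 UMI. Among receptors divided between both clusters, Olfr1307 had 8 Cd36+ ventral and 3 Ventral neurons (Cd36 10.4 and 0.797 UMIs per 10000), and Olfr1201 had 4 and 5 (21.8 and 2.03). These 4 Olfr1201 neurons are among the 8 above and raise their pooled level.

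Late immature OSNs (cell type iOSN2) were not part of the clustering of mature neurons, so in them the same genes could be tested. Cells were grouped by the cluster that holds over 50% of the mature neurons of their most abundant receptor, which gave 51 cells with a Cd36+ ventral receptor (19, 14, 7 and 11 per mouse) and 404 with a Ventral receptor (91, 128, 67 and 118), out of 1006 late immature OSNs. Receptor genes defined the groups and were left out. With the mouse as a block, edgeR's quasi-likelihood test called 69 of 5878 genes (1.17%) as higher and 105 (1.79%) as lower in cells with a Cd36+ ventral receptor, and 726 genes had an unadjusted p under 0.05. DESeq2 called 34 higher and 40 lower, and with no filter on low counts edgeR called 45 and 225.

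Most genes that mark the mature cluster were already different. Cd36 stood at 1.24, 2.81, 2.22 and 1.17 UMIs per 10000 in immature cells with a Cd36+ ventral receptor and at 0.0374, 0.0112, 0.0148 and 0 in those with a Ventral receptor (67 against 5 UMIs in all, log2 fold change 6.58, SE 0.436, edgeR adjusted p 1.6e-19). Tshz1 stood at 5.89, 5.28, 6.36 and 5.25 against 0.623, 0.548, 0.739 and 0.56 (3.18, SE 0.160, adjusted p 2.3e-25). The groups did not overlap for either gene, and the Cd36 level in these cells was below that of mature members in each mouse. Further called genes were Cyp4v3 (3.97), Cd55 (3.66), Dio2 (3.65, from 13 against 8 UMIs), Mboat1 (3.49), Klkb1 (3.20), Pcdh11x (2.83), Tppp3 (2.58) and Zfp407 (2.05). In all, of the 33 genes higher in the mature cluster 29 were tested, 26 were called higher and 29 had a log2 fold change above 0, with a median of 1.39 against 0.00 over all tested genes. The other 4 had too few UMIs for the filter.

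The lower genes were shared in part. Of 36 genes lower in the mature cluster 32 were tested, 20 were called lower and 32 had a log2 fold change below 0, with a median of −1.27, which is the same when the 3 genes with 0 UMIs in the Cd36+ ventral group are set at their bound. Mslnl (−3.18), Cadps2 (−3.33), Ptn (−2.60) and Cidea (2 against 611 UMIs) were called. Of those without a UMI, Adam28 (0 against 342 UMIs) was at least 14.0-fold lower and Tuba4a (0 against 300) at least 12.2-fold lower, taking 3 counts over the group as the floor. Rprm, a cell-cycle regulator that was not past the fold rule in mature neurons, had 0 against 659 UMIs and was at least 26.9-fold lower, and Hectd2os and Galnt15 had 0 against 166 and 114 UMIs. 2010204K13Rik and Pcdh10, both past the fold rule in the mature cluster, were not called (−0.87 and −0.41, edgeR adjusted p 0.34 and 0.67).

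**Figure D5:**
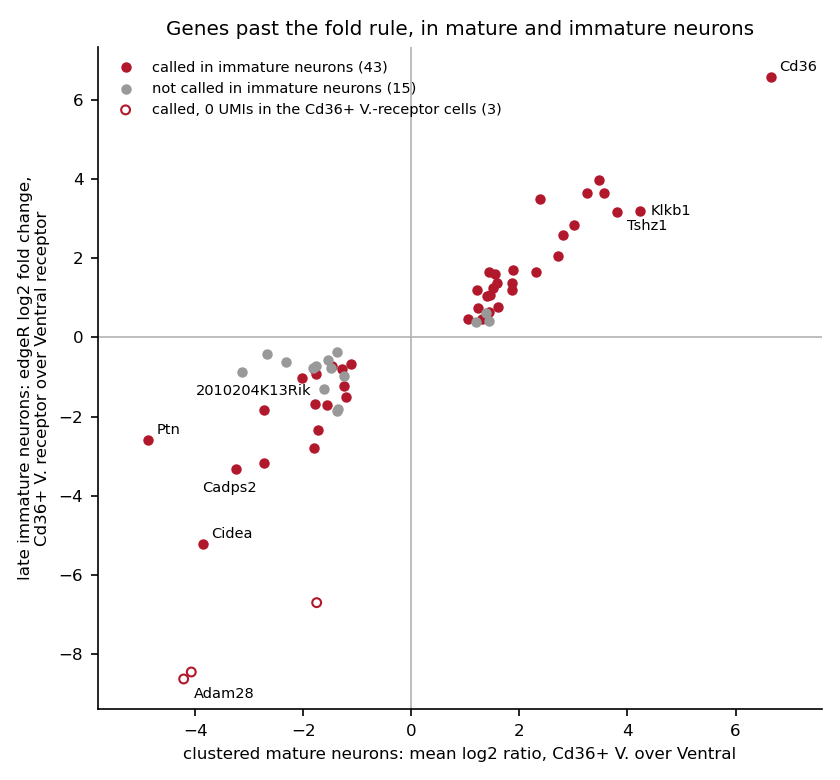
Genes past the fold rule in mature neurons, as mean log2 ratio of Cd36+ ventral over Ventral (horizontal axis) and edgeR log2 fold change in late immature neurons grouped by receptor (vertical axis). All 61 tested genes keep their sign, filled red points are called, grey points are not, and open circles mark 3 called genes with 0 UMIs in the Cd36+ ventral group, whose fitted value depends on the prior count.

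Omp, Gap43 and Nfix were not called between these immature groups. Omp had a log2 fold change of −0.20 (SE 0.08, edgeR adjusted p 0.25), Gap43 −0.38 (SE 0.13, adjusted p 0.13) and Nfix −0.19 (adjusted p 0.68), and of 14 tested immature-neuron markers Tubb3 was higher (0.36) and Dcx (−0.71) and Stmn1 (−0.36) were lower. Of the 22 tested genes of the transduction list 8 were called lower and 0 higher, namely Adcy3 (−1.02), Stoml3 (−0.92), Kirrel2 (−0.87), Cnga2 (−0.69), Ric8b (−0.61), Pde4a (−0.60), Gnal (−0.53) and Gng13 (−0.37). Kirrel2 is an adhesion molecule that sorts OSN axons, and the guidance list holds it too, so that its call counts under both. Unadjusted, 12 of the 22 were lower and 0 higher at a p under 0.05 in edgeR, and DESeq2 called 5 lower and 0 higher. Of 22 tested guidance and adhesion genes Robo2 was higher (1.02) and 7 were lower, including Nrp1 (1 against 200 UMIs), Plxna3 (−2.34), Epha5 (−1.17), Sema7a (−1.11) and Nrp2 (−0.95). Among dorsal zone markers Nqo1 (1.74), Robo2 and Cartpt (0.93) were higher and Nrp1 lower. The background over all genes was 1.17% higher and 1.79% lower, as given above.

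Several genes pointed another way in immature cells than in the mature cluster. S100a5 was lower (126, 37.2, 80.3 and 74.9 UMIs per 10000 against 151, 153, 141 and 155, log2 fold change −1.03, SE 0.115, edgeR adjusted p 3.1e-10), and the immature groups did not overlap. Pcp4l1, a calmodulin-binding Purkinje cell protein relative, was lower as well (2.88, 0.337, 1.63 and 3.94 against 7.94, 9.56, 8.01 and 10.3, −2.01, SE 0.174, adjusted p 1.9e-14), although it stood at 18.2 against 15.8 in the mature clusters. Pcdh7 (−1.50) and Dlg2 (−1.35) were called lower too, and both stood higher in the mature cluster. The difference between immature and mature neurons was not tested.

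Mature OSNs that had been left out of the clustering gave a further set of cells that had not shaped the clusters. Only 20 of them (2, 5, 5 and 8 per mouse) had a Cd36+ ventral receptor as their most abundant one and 191 a Ventral receptor, and of all 980 neurons left out 344 held several receptors above the limit set for the deposited calls, 252 had an identity found in only 1 or 2 neurons, 229 had no receptor above the limit and 155 no receptor at all. A receptor needed at least 3 clustered neurons to be assigned, so the 252 and the 155 could not enter these groups. The 20 and 191 cells thus came from the 344, which the study removed as possible multiplets, and from the 229 with little receptor RNA. They are not ordinary members of the clusters. Of 2731 genes, 13 were called higher (0.476%) and 10 lower (0.366%), and 217 had an unadjusted p under 0.05. Cd36 stood at 4.32, 4.17, 5.06 and 6.13 UMIs per 10000 against 0.118, 0.172, 1.13 and 0.155 (log2 fold change 3.93, SE 0.376, edgeR adjusted p 7.2e-11), without overlap. Tshz1 (2.42, adjusted p 2.7e-09) and S100a5 (1.12, adjusted p 0.0021, lower in mouse 4) were higher, and Adcy3 (−0.83) and Cnga2 (−1.03) were lower. Of the 33 higher genes of the cluster 18 could be tested, 10 were called and 18 had a log2 fold change above 0. Of the 36 lower genes 22 could be tested, 0 were called by edgeR, 14 had an unadjusted p under 0.05 and 22 had a log2 fold change below 0. With 2 cells in mouse 1, the number of calls moved between 5 and 11 higher and 0 and 5 lower when 1 mouse was left out.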

How the data were processed

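Each mouse gave 1 library of sorted live epithelial cells, and the deposited matrices hold UMI counts of 55511 genes, 1430 of them receptor genes. Per the labels and the study's methods, the authors counted reads with Cell Ranger 6.0.1 on GRCm38, with an Ensembl annotation whose receptor 3′ ends had been redrawn. With Seurat, the authors removed blood, immune and low-quality clusters, named the cell types, took as receptor identity of a mature OSN the highest receptor gene above a cutoff, set aside OSNs with several such genes, and clustered the neurons of populations with at least 3 cells, receptor genes left out. The deposited percent of mitochondrial counts per cell was computed by the authors and used here only to describe the cells. Clusters and identities were used as deposited, and UMI totals recomputed from the matrices equalled the deposited ones in every cell. No doublet caller was run. The 344 mature OSNs with several receptors were in no cluster. Samples were grouped by the labels (1 group), and the labels do not say whether the mice were litter mates.

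Levels were summed per mouse and cluster (UMIs per 10000, pseudocount 0.05 for log2 ratios). A gene was measured from 0.1 UMIs per 10000, and the fold rule asked for 2-fold in each mouse and 0.5 in the higher cluster. Because genes outside the receptor family had shaped the clusters, they were tested only in late immature neurons and in mature neurons without a cluster. These were grouped by their top receptor (at least 2 UMIs and above the second), assigned to the cluster holding over 50% of at least 3 mature neurons with it. Counts were tested with edgeR 4.0.16 (quasi-likelihood, TMM and filterByExpr for genes, neuron numbers as library size for identities and arrays, Benjamini-Hochberg threshold 0.05). The mouse was a block, since both groups come from the same 4 animals. DESeq2 1.42.0 was the alternative, and R 4.3.3, Python 3.11.15, scipy 1.17.1 and Biopython 1.88 were used. Values per mouse were compared with exact sign-flip permutation tests. Cells were thinned to 3000 UMIs where detection was compared. The edgeR tests were checked on simulated counts with known changes. Receptor positions and coding sequences came from GENCODE M21 on GRCm38, to which all 1430 receptor genes matched by identifier.

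The members, gene lists and tests were chosen with earlier results of these data known. Named genes were the 20 highest and 10 lowest mean log2 ratios past the fold rule, 2 to 4 genes of each list with the largest ratios, the 15 largest Cd36+ ventral and 5 largest Ventral identities, and the 5 largest immature changes each way. Any other gene was named after its values were seen. Wilson intervals at 95% and floors of 3 counts cover counting error only. Alternatives were other filters, normalizations and tests, thinning, no replicate block, and each mouse left out.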

Additional observations from a re-analysis of the deposited data

Results flagged for a closer look

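Values of the 4 mice were checked in 68 groups for 1 mouse lying apart from the other 3 by Dixon's test, which chance alone triggers in about 1 of 20 groups, and 7 were found. The log2 ratio of Tppp3 was 2.93 in 1 mouse and 2.76 to 2.78 in the others. Fam241a reached 1.47 UMIs per 10000 in Cd36+ ventral neurons of 1 mouse, against 1.11 to 1.16. Of the nearly silent genes, Ptn reached 0.0305 in 1 mouse against 0.0143 to 0.0158, Adam28 0.0473 against 0.0143 to 0.0152, and Avp 0.0152 against 0 in the other 3 mice. The log2 ratio of Adam28 was −3.83 in that mouse against −4.37 to −4.30, and that of Mslnl −3.19 in 1 mouse against −2.61 to −2.51. In each of these genes all 4 mice lay on the same side of Ventral.

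Among 85 genes, 7 had a log2 ratio in late immature neurons that was opposite, in every mouse, to that of the mature clusters. The mean immature ratio was −2.43 for Pcp4l1, −1.37 for the protocadherin Pcdh7, −1.06 for Egr1, −0.68 for the calcium-binding protein S100a6, −0.50 for Fos, −0.20 for Acadvl and −1.08 for Plvap, a gene of the endothelial list, and all were above 0 in the mature clusters. Pcdh7 was also opposite in the Cd36+ dorsal cluster, with a mean log2 ratio over Dorsal of −0.44. S100a5 is not among these 7, although its levels given above were also opposite in every mouse, so the list is not complete. These differences between stages and zones were not tested.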

How the results depend on the processing

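The fold rule gave 33 higher and 36 lower genes, 68 and 65 with a minimum of 0.1 UMIs per 10000, and 15 and 8 with a minimum of 2. Identities more frequent in Cd36+ ventral neurons numbered 25, also with no replicate block and without each mouse (25). Those refits kept the 182 identities that reached 10 neurons over all 4 mice. As 14 of the 25 passed this limit through the Cd36+ ventral cluster alone, the constant count does not measure stability. The count was 22 with DESeq2 and 18 with TMM factors, but 40 from 5 neurons and 3 from 20 neurons, where fewer populations could be tested. Identities called less frequent varied widely in number, with 29 against 14 with no replicate block, 157 with TMM factors, 12 from 5 neurons and 59 from 20 neurons. They numbered 0 with DESeq2 (23 identities of either direction at an unadjusted p under 0.05) and 16 among neurons without a second receptor of 2 or more UMIs. With receptor UMI sums they numbered 151, and without 1 mouse 0 to 11. Calls in immature neurons (69 higher, 105 lower) became 45 and 225 with no filter, 34 and 40 with DESeq2, 67 and 99 with no replicate block, and 47 to 69 and 77 to 106 without 1 mouse. Arrays (6 and 23) became 3 to 5 and 19 to 20 without 1 mouse, 6 and 22 with no replicate block, and 6 and 25 with a gap of 500000 bases. Unclustered neurons (13 and 10) gave 5 to 11 and 0 to 5 without 1 mouse and 13 and 8 with no replicate block. The cause of these shifts was not tested. Among named immature genes, the calls of Frmd3, Fam241a, Aldh3b1, Rnd2 and Zfp407 were lost in at least 1 setting, and 0 of all results reversed. The array gap, and all alternatives for arrays and unclustered neurons, were chosen after seeing the data. Populations of 10 to 27 neurons and genes under 0.1 UMIs per 10000 are limited by counting error, and 4 mice of 1 group cannot give an exact p under 0.125.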

Other observations

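Some genes past the fold rule were neighbours in the genome, which was noticed after their values were seen. Tshz1 and Zadh2 lie 357 bases apart on opposite strands, and Zfp407 follows at 30499 bases from Zadh2, so that all 3 of these higher genes adjoin. Klkb1 and Cyp4v3 lie 10085 bases apart on the same strand with 1 protein-coding gene between them, and among the lower genes Gm44250 and Pon3 lie 366 bases apart on the same strand. Whether reads were shared between neighbours was not tested.

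In the neurons that had been left out of the clustering, 2 genes pointed the other way than in immature cells. S100a5 stood at 872, 441, 542 and 174 UMIs per 10000 with a Cd36+ ventral receptor against 206, 165, 227 and 231 with a Ventral receptor in mice 1 to 4, and was below the Ventral group in mouse 4 alone. Pcp4l1 was called higher (log2 fold change 0.77, edgeR adjusted p 0.015), whereas it was called lower in immature neurons, and the difference between the 2 kinds of cells was not tested. Avp, at 0 UMIs in immature cells with a Cd36+ ventral receptor and at 726 UMIs in those with a Ventral receptor, was not tested, and in the latter it ranged from 0.192 to 5.06 UMIs per 10000 between mice.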
